A study of Drosophila melanogaster with 7 samples.

Results

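The 4 genes phyl, sina, ebi and ttk encode the parts of one protein degradation route of Drosophila melanogaster. They were taken from the deposited table by gene name, and all 4 were found among its 17481 genes. The rule uses gene names and no measured value, and it was set with earlier results of these data known. Each gave 1 entry, with no transcript-level values, and all 4 were among the 8421 genes tested.

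Phyllopod (phyl) is an adaptor that brings the transcriptional repressor Tramtrack (ttk) to the RING-finger ubiquitin ligase Sina (sina), and the WD40 protein Ebi (ebi) takes part in the same complex. Ubiquitinated Tramtrack is destroyed by the proteasome, which lifts its repression of neural genes, a route first worked out in photoreceptors of the eye and in sensory bristles. In the adult midgut Tramtrack is known to hold back the formation of hormone-secreting enteroendocrine cells. The route acts on Tramtrack protein, so RNA levels report the supply of its parts and not the amount of Tramtrack protein, which was not measured here.

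RNA was sequenced from sorted midgut stem cells of adult flies at day 2, about 10000 cells carrying green fluorescent protein for each library. In the group called Ctrl, 3 libraries came from wild-type flies. In the group called ScOE, 4 libraries came from an overexpression of Sc, the proneural basic helix-loop-helix factor encoded by scute (sc). The labels name no driver line, no duration of expression and no separate animals or cultures, so p-values measure only how much these libraries vary, which may be technical.

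Values are FPKM, the number of sequenced fragments of a gene scaled to its length and to the mapped fragments of the library. Levels of different genes can be set side by side only roughly, since the RNA was amplified before library preparation. Summed FPKM ran from 1924963 to 2614335 in Ctrl and from 1059344 to 1382537 in ScOE, and between 7791 and 8381 genes reached 1 FPKM in a library. The depth in reads is unknown. The overexpressed gene sc was at 2.44, 0.978 and 0.886 FPKM in Ctrl 1, 2 and 3, while ScOE 1 to 4 held 190, 122, 170 and 66.0 FPKM. The values do not separate the native gene from a transgene. Summed over 10 enteroendocrine markers, the level ran from 161 to 1230 FPKM in Ctrl and from 3587 to 9917 FPKM in ScOE. Of these markers 9 rose and none fell, with NPF not passing. Among the 9, AstA and nSyb had a Ctrl library under 1 FPKM and entered the test through ScOE. Summed over 8 stem cell and enteroblast markers it ran from 592 to 767 FPKM in Ctrl and from 496 to 587 FPKM in ScOE. Of these, spdo and Su(H) rose, Sox21a and Sox100B fell, and esg, Dl, mira and klu did not pass. Enterocyte markers varied within both groups, from 785 to 28680 FPKM in Ctrl and from 542 to 9411 FPKM in ScOE over 10 genes. Of these Myo31DF fell, from a mean of 96.4 to 53.2 FPKM, and the other 9 did not pass. That fall was lost with every library set to the same FPKM total. Summed over 7 visceral muscle markers, ScOE 3 held 143 FPKM and no other library more than 9.46 FPKM. The 5 neuron markers summed to between 6.64 and 8.01 FPKM in Ctrl and between 28.3 and 32.5 FPKM in ScOE. All 5 rose, but fne, brp, Syt1 and futsch had a Ctrl library under 1 FPKM and entered the test through ScOE. The 5 hemocyte markers stayed between 6.76 and 11.6 FPKM, with srp falling. The 5 glia markers summed to between 213 and 318 FPKM in Ctrl and between 117 and 139 FPKM in ScOE. This sum is that of moody and nrv2, which both fell, since repo, alrm and wrapper were under 1 FPKM in every library. With equal totals the falls of Sox21a (log2 -0.45), srp (0.23), moody (-0.27) and nrv2 (-0.12) were lost as well as that of Myo31DF. Only the fall of Sox100B held (-0.74). NPF, Dl, mira, the enterocyte marker mex1 and the hemocyte marker Sr-CI then passed as rises, where 52.9% of all tested genes did. Each library is a bulk sample, so fewer cells of a type and less RNA per cell cannot be told apart, and the part of the cell mix in the results below was not tested.

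The adaptor gene phyl and the ligase gene sina were higher in every ScOE library than in any Ctrl library, while ebi and ttk overlapped between the groups. In limma, a linear model fitted across all genes on log2(FPKM + 1), phyl and sina rose at an adjusted p under 0.05 and ebi and ttk did not pass. Thus 2 of the 4 genes changed, where 39.0% of all tested genes changed, and both rose, where 17.6% of tested genes rose and 21.3% fell. Groups did not overlap for 2 of the 4, against 46.3% of tested genes (20.3% higher in ScOE and 25.9% lower). With 4 genes these shares are near the background, and no result on the 4 as a group is read from them. The 17.6% and 21.3% are also the background for each count of rises and falls as deposited, the markers above included.

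**Figure D1:**
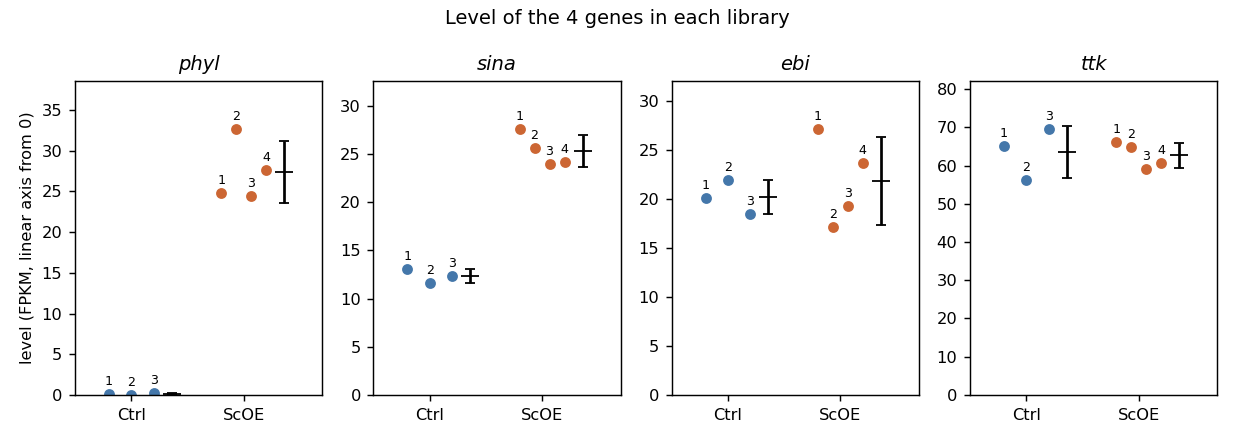
Level in FPKM (linear axes from 0) of phyl, sina, ebi and ttk in each library, with the replicate number above each point and the mean ± SD of the group beside it (3 Ctrl and 4 ScOE libraries). The ScOE libraries lie above all Ctrl libraries for phyl and sina, and the groups overlap for ebi and ttk.

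The adaptor came first in the size of its change. In Ctrl 1, 2 and 3 phyl (FBgn0013725, BDGP6 chromosome 2R, 14427336 to 14432337, minus strand) was at 0.0878, 0.0335 and 0.236 FPKM. In ScOE 1, 2, 3 and 4 it was at 24.8, 32.7, 24.4 and 27.6 FPKM. It was low in every Ctrl library and high in every ScOE library. Among the tested genes, its mean lay above that of 1.4% in Ctrl and above that of 67.2% in ScOE. The lowest ScOE library held 104-fold the level of the highest Ctrl library. The log2 difference was 4.66 ± 0.14 (SE, n = 3 and 4) with an adjusted p of 4.02e-06 in limma, and 27 of 8421 genes had a larger one. That value depends on the pseudocount, since it is set by Ctrl levels far under 1 FPKM, and was 7.07 with a pseudocount of 0.1 and 2.65 with one of 5. In an exact two-sided permutation test its p was 0.0286, the lowest value that 3 against 4 libraries allow. Because phyl reached 1 FPKM in ScOE alone, it entered the test through the group in which it was high.

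Among the ScOE libraries phyl varied less than the overexpressed gene. The highest ScOE library held 1.34-fold the phyl level of the lowest, against 2.87-fold for sc. The library lowest in sc, ScOE 4 with 66.0 FPKM, was the next to highest in phyl with 27.6 FPKM. The library highest in sc, ScOE 1 with 190 FPKM, held 24.8 FPKM of phyl.

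The ligase gene was expressed in both groups. In Ctrl 1, 2 and 3 sina (FBgn0003410, chromosome 3L, 16853751 to 16858712, plus strand) was at 13.1, 11.6 and 12.3 FPKM. In ScOE 1 to 4 it was at 27.6, 25.6, 23.9 and 24.2 FPKM. The 2 groups were tight and well apart, with SDs of 6.01% of the mean in Ctrl and 6.66% in ScOE. The mean was 2.05-fold higher in ScOE, and the log2 difference was 0.98 ± 0.11 (SE, n = 3 and 4; 95% interval 0.73 to 1.23), with an adjusted p of 0.000531 in limma and p = 0.0286 in the exact permutation test. Larger rises were held by 895 tested genes, or 10.6%, so the change of sina was smaller in rank than that of phyl.

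The neighbour sinah (FBgn0259794), a related ligase gene that starts 367 bases after the end of sina on the same strand, was at 0.0768, 0 and 0.103 FPKM in Ctrl and at most 0.0253 FPKM in ScOE. It was therefore not tested. Both genes lie within the span of Rh4, an opsin gene on the opposite strand, without sharing any exon base with it. Rh4 was at most 0.0550 FPKM in any library (0.0160 and 0.0332 FPKM as means of Ctrl and ScOE).

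The WD40 gene ebi differed little between the groups. In the Ctrl libraries 1 to 3 ebi (FBgn0263933, chromosome 2L, 415067 to 418536, plus strand) was at 20.2, 21.9 and 18.5 FPKM, and in ScOE 1 to 4 at 27.2, 17.2, 19.3 and 23.7 FPKM. The ScOE libraries lay on both sides of the Ctrl range, and ScOE was the more variable group, with an SD of 20.5% of the mean against 8.46% in Ctrl. The log2 difference was 0.09 ± 0.17 (SE, n = 3 and 4), with an adjusted p of 0.722 in limma and p = 0.629 in the exact permutation test. Its 95% interval, from -0.32 to 0.49, spans folds from 0.802 to 1.41. The opposite-strand gene CG13690 shares 103 exon bases with the end of ebi. CG13690 rose from a mean of 2.74 to 8.42 FPKM (adjusted p = 0.000412 in limma), and whether strand was used in counting is not given in the sources used here, so reads of the shared bases cannot be told apart.

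The target gene was the most abundant of the 4 in every library. In Ctrl 1, 2 and 3 ttk (FBgn0003870, chromosome 3R, 31713867 to 31735392, plus strand) was at 65.0, 56.2 and 69.6 FPKM. In ScOE 1 to 4 it was at 66.1, 64.8, 59.2 and 60.7 FPKM, all within the Ctrl range. The log2 difference was -0.02 ± 0.11 (SE, n = 3 and 4), with an adjusted p of 0.922 in limma and p = 0.886 in the exact permutation test. Its 95% interval, from -0.29 to 0.25, spans folds from 0.820 to 1.19, so a change in ttk RNA as large as that of sina lies outside it at this scaling. Only 1.8% of tested genes had a smaller absolute difference. With every library set to the same FPKM total, which moved the median of all tested genes from -0.08 to 0.69, ttk was at 0.84 and ebi at 0.92, and both then passed (adjusted p = 0.00375 and 0.00653 in limma). At that setting 52.9% of tested genes rose and 3.31% fell, which is the background for each count with equal totals below. Against the median of all tested genes ttk thus stood 0.06 higher as deposited and 0.15 higher with equal totals, and ebi 0.17 and 0.23 higher. The same distance was 1.06 and 1.11 for sina and 4.74 and 4.45 for phyl.

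**Figure D2:**
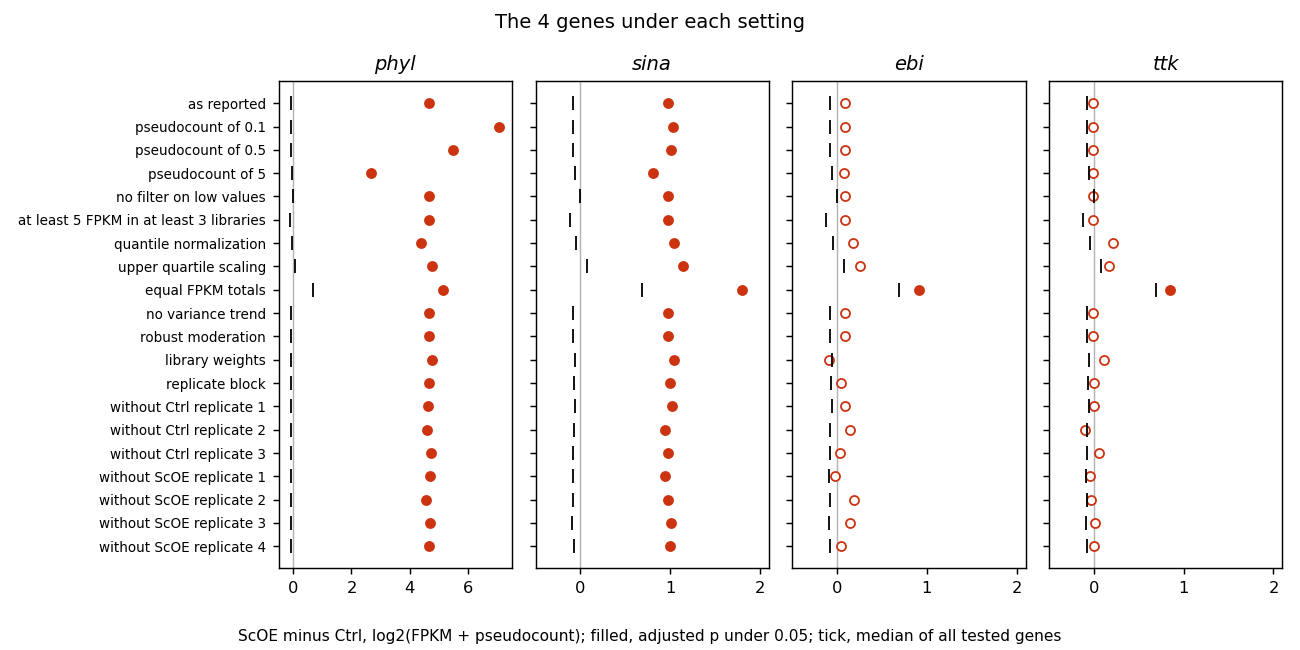
ScOE minus Ctrl difference on the log2 scale for phyl, sina, ebi and ttk under each setting; filled points passed an adjusted p under 0.05 in limma, open points did not, and ticks give the median of all tested genes. Points of phyl and sina are filled throughout, and ebi and ttk pass where totals are set equal, together with a shift of the median to 0.69.

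The deposited level of ttk pools transcripts that encode different proteins. The annotation gives ttk 8 transcripts with 2 coding sequences, one of 643 codons and one of 813 codons, with 4 transcripts each. They share 865 coding bases, or 288 whole codons, at the start, and then use different last coding exons. The gene is known to make the proteins Ttk69 and Ttk88, which share a BTB domain and carry different zinc fingers, and it is Ttk69 whose loss is known to give extra enteroendocrine cells. A shift between these forms would leave the gene-level value as it is if the total did not move, and no transcript value was used here. By contrast phyl has 1 annotated transcript with 400 codons, ebi has 1 with 700 codons, and the 3 of sina share 1 coding sequence of 314 codons.

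**Figure D3:**
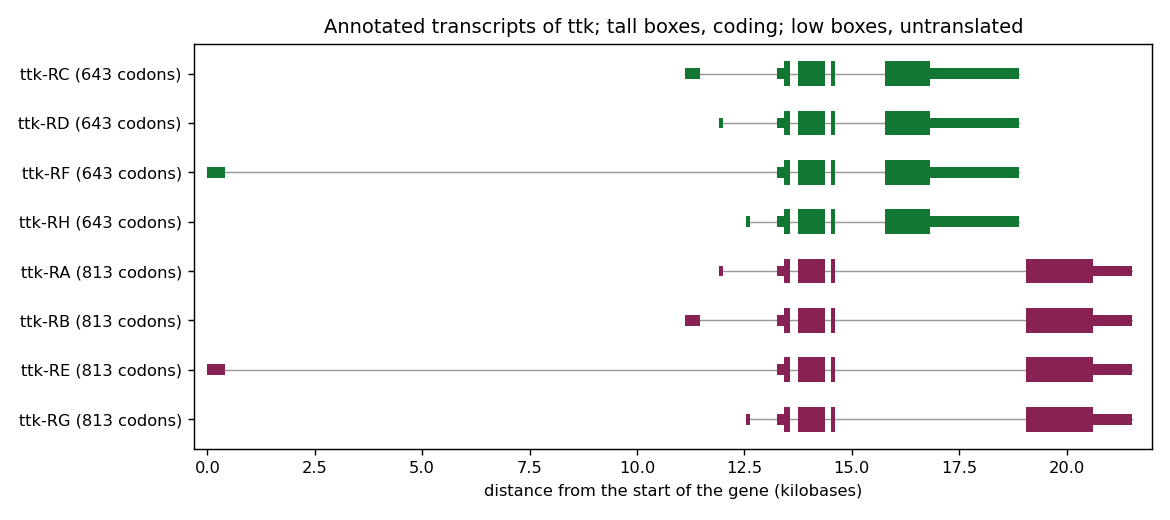
The 8 annotated transcripts of ttk by distance from the start of the gene in kilobases, with coding parts as tall boxes and untranslated parts as low boxes. Transcripts of 643 codons (green) and of 813 codons (purple) differ in their last coding exon, and both kinds occur with each of the first exons.

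Levels of the 4 genes relative to each other in the same library do not depend on how libraries are scaled, apart from the pseudocount. In FPKM per FPKM, sina stood at 0.202, 0.207 and 0.177 of ttk in Ctrl 1, 2 and 3 and at 0.418, 0.395, 0.404 and 0.399 of ttk in ScOE 1 to 4. This ratio was nearly constant among the ScOE libraries and clearly higher than in Ctrl. On the log2(FPKM + 1) scale sina minus ttk was -2.27 ± 0.12 in Ctrl (SD, n = 3) and -1.27 ± 0.03 in ScOE (SD, n = 4), a shift of 1.00 ± 0.07 (SE). An exact two-sided permutation test gave p = 0.0286, or 0.0381 adjusted over the 4 differences computed. As deposited, sina differed by 0.98 and ttk by -0.02. The rise of sina thus sets this shift, which gives no separate support for it.

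Between sina and ebi the order changed. Among Ctrl libraries 1 to 3 the ratio of sina to ebi was 0.650, 0.530 and 0.664, and in ScOE 1 to 4 it was 1.02, 1.49, 1.24 and 1.02. The level of sina was thus below that of ebi in each Ctrl library and at or above it in each ScOE library. The log2 shift was 0.89 ± 0.16 (SE, n = 3 and 4; exact permutation p = 0.0286, adjusted p = 0.0381). With ebi differing by 0.09 as deposited, this shift too restates the rise of sina and gives no separate support. The difference of ebi and ttk moved by 0.10 ± 0.21 with overlapping groups (exact permutation p = 0.629).

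The ratio of phyl to sina was 0.0067, 0.00288 and 0.0192 in Ctrl 1, 2 and 3 and 0.898, 1.27, 1.02 and 1.14 in ScOE 1 to 4. The adaptor was therefore scarce beside its ligase in Ctrl and close to level with it in ScOE. The log2 shift was 3.68 ± 0.13 (SE; exact permutation p = 0.0286 for n = 3 and 4, adjusted p = 0.0381). Like the difference of phyl itself it depends on the pseudocount, at 6.04 with 0.1 and 1.85 with 5. It gives no separate support, since the rise of phyl sets this shift and phyl entered the test through ScOE. The p of 0.0286 is the lowest that 3 against 4 libraries allow. In Ctrl the order of levels was ttk, ebi, sina and phyl, with no overlap between neighbours. In ScOE ttk stayed highest, and the ranges of phyl (24.4 to 32.7 FPKM), sina (23.9 to 27.6 FPKM) and ebi (17.2 to 27.2 FPKM) overlapped.

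**Figure D4:**
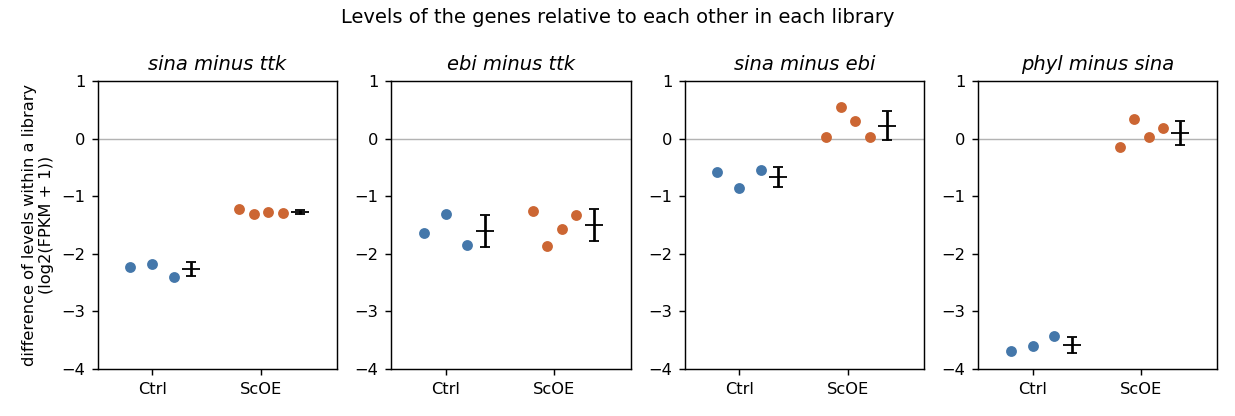
Differences between gene levels within each library on the log2(FPKM + 1) scale, with the mean ± SD of 3 Ctrl and 4 ScOE libraries beside the points. The groups are apart for sina minus ttk, sina minus ebi and phyl minus sina, and overlap for ebi minus ttk.

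The genes most like each of the 4 were found by the root mean square difference between centred log2(FPKM + 1) profiles over the 7 libraries, which is a description and includes the difference between groups. Nearest to phyl were E(spl)m4-BFM, a Bearded family gene of the Enhancer of split complex, E(spl)mdelta-HLH, a basic helix-loop-helix repressor gene of that complex, and CG13928, at 0.14, 0.23 and 0.24. E(spl)m4-BFM lay near phyl in level as well, at 0.0866, 0 and 0.233 FPKM in Ctrl and between 24.2 and 29.1 FPKM in ScOE. CG13928 went from a mean of 2.52 to 109 FPKM. Nearest to sina were CG7183, the axon guidance receptor gene gogo and CG3529, at 0.06 to 0.07. Their levels differed, with ScOE means of 9.82, 1.59 and 52.3 FPKM. In Ctrl gogo was at 0.224 to 0.246 FPKM, so it entered the test through ScOE, and its closeness to sina rests in part on the pseudocount. The mean of gogo was 6.76-fold higher in ScOE, against 2.05-fold for sina. Nearest to ebi were cnir, Nf-YB, which encodes a subunit of the CCAAT-binding factor NF-Y, and CG31156, at 0.07 to 0.08. Nearest to ttk were the aminotransferase gene Got1, CG9588 and Pbp45, at 0.06 to 0.07, and none of these 6 genes passed the test.

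Genes known to be repressed by Tramtrack were higher in ScOE. Of 10 genes listed 6 were tested, and all 6 rose, where 17.6% of all tested genes rose. The median log2 difference of the 6 was 3.85 against -0.08 for all tested genes. Of these 6, sc was overexpressed by design, and 3 (sc, ase and CycE) had a Ctrl library under 1 FPKM, so that their place in the test rested on ScOE. The others listed, ac, l(1)sc, ftz and eve, did not reach the filter on low values. The homeodomain gene pros, a marker of enteroendocrine cells, was at 1.19 to 2.18 FPKM in Ctrl and 43.1 to 60.9 FPKM in ScOE (adjusted p = 1.07e-05 in limma). For ase, a proneural gene of the achaete-scute complex, the table lists 0 in each Ctrl library and 8.39 to 13.5 FPKM in ScOE, so its log2 value, which enters the median, depends on the pseudocount. The Hes-type repressor gene dpn rose from 5.01 ± 3.25 to 118 ± 22.6 FPKM, cyclin E (CycE) from 0.849 ± 0.368 to 11.5 ± 1.92 FPKM, and stg, which encodes the mitotic Cdc25 phosphatase, from 9.25 ± 2.46 to 32.8 ± 9.19 FPKM. At the deposited scaling these 6 genes rose and the RNA of ttk itself did not pass. With equal totals all 6 rose, and ttk passed as a rise too (0.84, adjusted p = 0.00375 in limma). The part of Tramtrack protein in the rises of these genes was not tested.

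**Figure D5:**
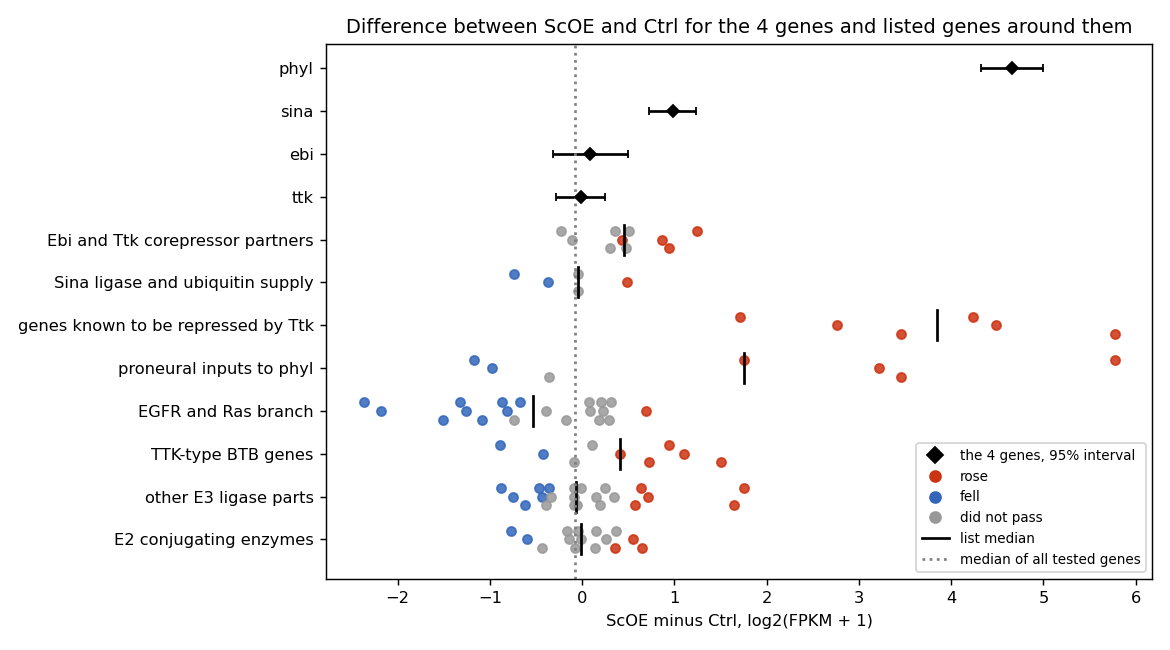
ScOE minus Ctrl differences on the log2(FPKM + 1) scale, with 95% intervals for phyl, sina, ebi and ttk and 1 point for each tested gene of 8 lists of related genes. Listed targets of Ttk lie to the right of 0, from 1.72 to 5.77, and the EGFR and Ras list has its median at -0.53, with 9 falls as deposited and 3 with equal FPKM totals.

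The list named proneural inputs to phyl holds proneural genes and genes that act with them, such as the ligase gene neur. Whether each acts on phyl was not tested. Of its 12 genes 7 were tested, and 4 rose, 2 fell and 1 did not pass. Over all tested genes 17.6% rose and 21.3% fell. The median log2 difference of the 7 was 1.75, which is the value of neur. Of the 4 that rose, sc was overexpressed by design, and sc, ase and tap had Ctrl libraries under 1 FPKM. The count and the median thus rest in part on the overexpressed gene itself and on genes admitted by their ScOE level. Besides sc and ase, tap and neur rose. The gene tap encodes a neurogenin-type factor and went from 0.405 ± 0.269 to 12.2 ± 2.89 FPKM. The gene neur encodes a ligase acting on Notch ligands and went from 8.52 ± 0.202 to 31.2 ± 3.38 FPKM. The genes ac, l(1)sc, ato, amos and sens, known activators of phyl or of bristle fate, were not above the filter. The obligate partner of Sc, da, was at 35.3 ± 7.37 and 27.1 ± 4.42 FPKM (adjusted p = 0.161 in limma). The inhibitor of proneural proteins emc fell, from 112 ± 12.0 FPKM in Ctrl to 57.9 ± 17.4 FPKM in ScOE. Its log2 difference was -0.98 ± 0.24, and it did not pass without Ctrl 2 (adjusted p = 0.0553). The repressor gene h had a log2 difference of -1.17 ± 0.36, and its call was lost without Ctrl 3 or any 1 ScOE library (adjusted p = 0.0555 to 0.0834). Neither emc nor h passed with equal FPKM totals, at -0.12 and -0.32.

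In the eye, phyl is known to be switched on by EGFR and Ras signalling. Of 26 listed genes of that branch 20 were tested, and 1 rose, 9 fell and 10 did not pass (median log2 difference -0.53). As deposited, 17.6% of all tested genes rose and 21.3% fell. The ETS activator gene pnt was at 26.0, 34.2 and 29.0 FPKM in the Ctrl libraries, and the ScOE libraries held 12.7, 12.4, 10.9 and 11.1 FPKM (log2 -1.26 ± 0.13). Its inhibitor gene edl fell from 211 ± 25.8 to 83.3 ± 8.42 FPKM and the adaptor gene drk from 195 ± 14.1 to 92.0 ± 8.34 FPKM. The ligand gene grk rose, from 5.15 ± 1.20 to 8.84 ± 0.842 FPKM. The split turned with equal FPKM totals, where 9 of 20 rose and 3 fell beside 52.9% and 3.31% of all tested genes, and pnt, edl and drk no longer passed, at -0.44, -0.46 and -0.22. The 3 that fell there were the ligand gene vn and the inhibitor genes sty and aos, which had log2 differences of -2.18, -1.50 and -2.36 as deposited and -1.62, -0.64 and -1.55 with equal totals. Of these vn was at 0.324 to 1.02 FPKM in ScOE, so it entered the test through Ctrl, where it was high. The inputs sev, boss and lz, listed for their part in the eye, were under the filter and not tested. They had at most 0.0180, 0.524 and 0.368 FPKM in any library. For boss the Ctrl libraries held at most 0.02285 FPKM and the ScOE libraries 0.191 to 0.524 FPKM.

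Corepressor partners of Ebi and Tramtrack rose for 4 of 10 tested genes and fell for none (median log2 difference 0.46), where 17.6% of all tested genes rose. The deacetylase gene Rpd3 was at 45.2, 39.1 and 33.2 FPKM in the Ctrl libraries, and the ScOE libraries held 90.5, 88.0, 87.5 and 110.5 FPKM (log2 1.25 ± 0.15, adjusted p = 0.000748 in limma). Su(H), the DNA-binding factor of the Notch pathway, rose from 4.15 ± 0.545 to 8.35 ± 0.399 FPKM and Trl, the GAGA factor, from 21.2 ± 4.58 to 41.5 ± 6.72 FPKM. The corepressor gene gro also passed (log2 0.43 ± 0.13), but not without Ctrl 2, Ctrl 3 or ScOE 1, 2 or 3 (adjusted p = 0.0811 to 0.116). Smr, the scaffold of the complex in which Ebi is known to sit, was at 26.3 ± 0.781 and 22.5 ± 3.49 FPKM (adjusted p = 0.25 in limma). With equal totals all 10 passed as rises, where 52.9% of all tested genes did.

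At the deposited scaling, genes around Sina and its ubiquitin supply did not move in 1 direction. The E2 enzyme gene eff, whose product is known to act with Sina, was at 487 ± 42.1 and 473 ± 69.3 FPKM (adjusted p = 0.823 in limma), and msi, whose RNA-binding product represses ttk translation in bristle cells, at 23.5 ± 2.96 and 22.9 ± 3.70 FPKM (adjusted p = 0.85). Of 5 tested genes 1 rose and 2 fell, beside 17.6% and 21.3% of all tested genes. The polyubiquitin gene Ubi-p63E rose (log2 0.48), and the polyubiquitin gene Ubi-p5E (-0.74) and the E1 gene Uba1 (-0.37) fell. Each of these calls was lost in most fits with 1 library left out. Ubi-p63E was lost without Ctrl 1, Ctrl 2 or ScOE 1, 2 or 3 (adjusted p = 0.0948 to 0.131). Ubi-p5E was lost without Ctrl 2, Ctrl 3 or ScOE 1, 2 or 3 (adjusted p = 0.091 to 0.11), and Uba1 in all fits but that without ScOE 1 (adjusted p = 0.0641 to 0.0993). With equal totals 4 of the 5 rose, namely eff (0.82), msi (0.79), Uba1 (0.49) and Ubi-p63E (1.35), and Ubi-p5E did not pass (0.13).

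In the wider E2 list 3 of 15 tested genes rose and 2 fell, beside 17.6% and 21.3% of all tested genes. The list median log2 difference was -0.01. Ubc7 fell from 54.3 ± 4.50 to 31.3 ± 2.25 FPKM. Ubc10 fell (log2 -0.59), a call lost without ScOE 2 (adjusted p = 0.0512). Ubc4 rose (0.55), a call lost without ScOE 1 or 3 (adjusted p = 0.0519 and 0.0532). The SUMO-conjugating gene lwr (0.64) and the mitotic E2 gene vih (0.35) rose, and their calls were lost in 5 and 6 of the 7 such fits, in both cases without Ctrl 2, Ctrl 3 or ScOE 1, 2 or 3, and for vih also without ScOE 4 (adjusted p = 0.0582 to 0.0998 and 0.064 to 0.123). With equal totals 12 of the 15 rose and none fell, and Ubc7 and Ubc10 were at 0.08 and 0.27.

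In a list of other ubiquitin ligase parts, 5 of 22 tested genes rose and 6 fell (median log2 difference -0.07), near the shares over all genes. The largest rises were those of neur and of fzy, which encodes an activator of the mitotic ligase APC/C and went from 8.16 ± 0.307 to 28.5 ± 7.87 FPKM. Smurf, which encodes a HECT-domain ligase, rose from 6.52 ± 1.05 to 11.3 ± 1.25 FPKM. Su(dx), Cbl and slmb fell, by log2 -0.75, -0.88 and -0.36. The call of Cbl was lost without Ctrl 2 (adjusted p = 0.0569) and that of slmb without Ctrl 2, ScOE 1 or ScOE 3 (adjusted p = 0.06 to 0.0799), and none of these 3 passed as a fall with equal totals, where 14 of the 22 genes rose and slmb was at 0.47. Beside these ligase genes, the rise of sina was one of moderate size.

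Among BTB genes related to ttk, 5 of 9 tested rose and 2 fell, beside 17.6% and 21.3% of all tested genes. The other 2 did not pass, and the list median log2 difference was 0.41. One of the rises is that of Trl, which is on the corepressor list too. The genes ab, br and lola, which encode transcription factors of this family, rose from 0.924 ± 0.0593 to 4.50 ± 0.658 FPKM, from 3.46 ± 0.426 to 8.69 ± 1.98 FPKM and from 128 ± 15.5 to 211 ± 16.6 FPKM. Of these ab was under 1 FPKM in each Ctrl library and entered the test through ScOE. In contrast fru fell from 54.5 ± 1.60 to 29.1 ± 3.19 FPKM (log2 -0.88), and was at -0.04 with equal totals. The gene bab1 fell from 1.41 ± 0.125 to 0.801 ± 0.0367 FPKM, but was under 1 FPKM in every ScOE library and entered the test through Ctrl. It could be tested in 4 of the 7 fits with 1 library left out, those that kept all Ctrl libraries, and its call was lost without ScOE 1, 2 or 3 (adjusted p = 0.0566 to 0.0676) and with equal totals (0.02), where 7 of the 9 genes rose and none fell. In level, ttk lay between lola and fru in both groups.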

How the data were processed

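The authors deposited 1 table of FPKM. The submitters' processing notes name TopHat2 2.0.10, Cufflinks 2.2.1 and the genome build BDGP6. Strand setting, annotation and any scaling between libraries are not given in the sources used here. Per the labels' protocols, RNA from sorted cells was amplified before library preparation. FPKM keeps no read number, so no counting interval is given.

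Libraries were grouped by their titles. Values were taken as log2(FPKM + 1) and fitted with limma 3.58.1 (R 4.3.3), letting the variance follow the mean level. A gene was tested where 3 or more of the 7 libraries reached 1 FPKM, which left 8421 genes, and two-sided p-values were adjusted by Benjamini-Hochberg over these. Differences are ScOE minus Ctrl. Genes were also compared by exact permutation, with 35 ways to assign 7 libraries to groups of 3 and 4. The fit was also tested on 5 simulated tables with 200 changed genes each. It recovered 58.2% of 2-fold and 90.2% of 4-fold changes, and 5.21% of its calls were unchanged genes. A gene that did not pass may thus have changed 2-fold. Those tables held far fewer changed genes than the 3280 called here, so these shares need not hold for the data.

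The 4 genes, the 8 related lists and the markers were chosen with earlier results of these data known. Of 171 list entries 167 were matched. HDAC3, Gap1, mod(mdg4) and crl were not matched by name and are not analysed here. Named genes were the 4, sinah, sc, up to 3 rising and 3 falling genes of each list by adjusted p, the 3 most alike profiles for each and genes overlapping them; the other listed genes were named after their values were seen. Coordinates are those of the BDGP6 annotation, 1-based. Other settings changed the pseudocount (0.1, 0.5 or 5), the filter (none or 5 FPKM), the scaling (quantile, upper quartile or equal totals), the variance model (constant, robust or weighted by library), a block by replicate number, and left out each library in turn. Python 3.11.15 with matplotlib 3.10.9 drew the figures.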

Additional observations from a re-analysis of the deposited data

Results flagged for a closer look

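In 53 sets of 4 ScOE values checked, 2 had 1 library apart from the other 3 by Dixon's test, which flags about 1 set in 20 by chance. For Rpd3 the gap of ScOE 4, at 110.5 FPKM against 87.5 to 90.5 FPKM in the others, was 0.867 of the range. For bab1 the gap of ScOE 4, at 0.747 FPKM against 0.814 to 0.826 FPKM, was 0.857 of the range. None of phyl, sina, ebi and ttk was among them.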

How the results depend on the processing

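The rises of phyl and sina passed under all 12 other settings and in all 7 fits with 1 library left out, with log2 differences of 2.65 to 7.07 and 0.81 to 1.80 over the settings, and of 4.57 to 4.73 and 0.94 to 1.02 with a library left out. For ebi the range with a library left out was -0.0204 (without ScOE 1) to 0.19; it was -0.0894 with library weights, and it passed with equal FPKM totals (0.92). For ttk the range with a library left out was -0.10 to 0.0503; it was above 0 without Ctrl 1 (0.0023), Ctrl 3 (0.0503) and ScOE 3 (0.0105) as well as with quantile normalization (0.21), upper quartile scaling (0.16), library weights (0.11) and equal totals (0.84), passing only with the last. The cause of these shifts was not tested.

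Over the same settings 2540 to 4840 genes were called in all, and 2480 to 3179 with a library left out, against 3280. The share of rises among calls was 45.2%, and it became 60.5% after upper quartile scaling and 94.1% after equal totals. Among Ebi and Ttk partners equal totals gave 10 calls and upper quartile scaling 7 (3 to 5 with a library left out). In the ubiquitin supply list 1 was called with no filter, quantile normalization, upper quartile scaling and the replicate block (0 to 2 with a library left out). The replicate block called 5 other ligase parts and 3 E2 genes, and equal totals called 12 E2 genes; with a library left out these lists gave 5 to 11 and 2 to 6. The ranges with a library left out were 6 to 6 for listed Ttk targets, 5 to 6 for the proneural list, 9 to 11 for the EGFR branch and 5 to 6 for BTB genes.

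With a library left out, the shift of sina minus ttk was 0.93 to 1.04, of sina minus ebi 0.78 to 0.96, of phyl minus sina 3.60 to 3.76, and of ebi minus ttk -0.0206 (without Ctrl 3) to 0.25. The permutation test cannot pass there, since its smallest p is 0.0667 or 0.1. Deviations of same-numbered libraries correlated at 0.52, -0.04 and 0.08, and those of differently numbered libraries at -0.60 to 0.46. The labels do not say whether the numbers pair the libraries, and so few values cannot settle it. With the number as a block phyl was at 4.65, sina at 1.00, ebi at 0.04 and ttk at -0.0014, and 2540 genes were called.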
